A study of Mus musculus with 4 samples.

Results

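The genotype dependence of the flagellin response was measured as a difference of responses in total RNA of mouse nasal mucosa, taken from the septum and turbinates. A response is the log2 value after flagellin minus the log2 value after PBS. The difference of responses is the wild-type response minus the response of the arrays labelled Duox2-/-, so that 1 log2 unit is a 2-fold gap. It was taken for 19938 genes, all those with a probe set that names a single gene, which used 21789 of the 35556 probe sets of the table. The 4 groups were wild type given PBS, wild type given flagellin, Duox2-/- given PBS and Duox2-/- given flagellin. All mice were 8 weeks old and of the strain that the labels write as C56BL/6, each nostril received 25 ul, with flagellin at 5 ug/ml, and exposure lasted 4 h. The sources used here do not give the number of mice behind an array or the way the Duox2 allele was made.

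Each group had 1 array, all 4 arrays enter each difference, and nothing is left to estimate an error from. The differences are therefore described by size, with no p-value and no interval, and no value below has a replicate check. Array values lay between 1.43 and 13.7, the array medians were 6.48, 6.50, 6.56 and 6.56, and 12471 genes reached the median of all values, 6.52, in at least 1 array and are called bright here. The interquartile range was 2.79 and 2.73 in wild-type PBS and flagellin. It was narrower in PBS and flagellin labelled Duox2-/-, at 2.54 and 2.43. Duox2, the targeted gene, was dim and not lower where it should be altered: it read 4.95 under PBS and 5.12 under flagellin in wild type, and 5.23 and 5.50 in the arrays labelled Duox2-/-. The position of its probe set relative to the altered exons is not stated in the labels, so these values do not check the genotype, which is taken from the labels throughout. Its paralog Duox1 and its maturation factor Duoxa2 were dim too, with differences of responses of 0.12 and -0.26.

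Flagellin, the protein subunit of bacterial flagella, is sensed by Toll-like receptor 5 on epithelial cells, which signals through Myd88 to the transcription factor NF-kB. The epithelium then releases chemokines that draw in neutrophils and other leukocytes, antimicrobial proteins, and inhibitors that end the signal. Duox2 is an NADPH oxidase of the apical surface of airway and other epithelia that releases hydrogen peroxide, which serves lactoperoxidase as a substrate and has been studied as a signal in epithelial defence. The question of the comparison is which parts of the flagellin response differ between mice with and without this oxidase.

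Counted at 2-fold, the difference of responses leaned to the positive side. Of the 12471 bright genes, 180 had a difference of at least 2-fold above 0, which is 1.44% of them, and 17 had one of at least 2-fold below 0, which is 0.136%. The median difference over the bright genes was 0.07 and 59.9% lay above 0, with the 1st and 99th percentiles at -0.62 and 1.15. Over all 19938 genes the median was 0.02, 52.9% lay above 0, and 276 (1.38%) were at least 2-fold above and 42 (0.211%) at least 2-fold below. The sign of that median over all genes depended on the scaling. It was -0.008 with median centring, -0.009 with cyclic loess and -0.033 with quantile normalization. The response itself was at least 2-fold upward for 115 bright genes (0.922%) in wild type and for 22 (0.176%) in the arrays labelled Duox2-/-. Downward, it was at least 2-fold for 7 (0.0561%) and 63 (0.505%). Over all genes these counts were 167 (0.838%) and 44 (0.221%) upward and 11 (0.0552%) and 93 (0.466%) downward. The smallest counted difference was 1.0012, for the zinc finger gene Zfp991, and the largest not counted was 0.9958, for Lilr4b, so the size is a cut through a continuum.

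**Figure D1:**
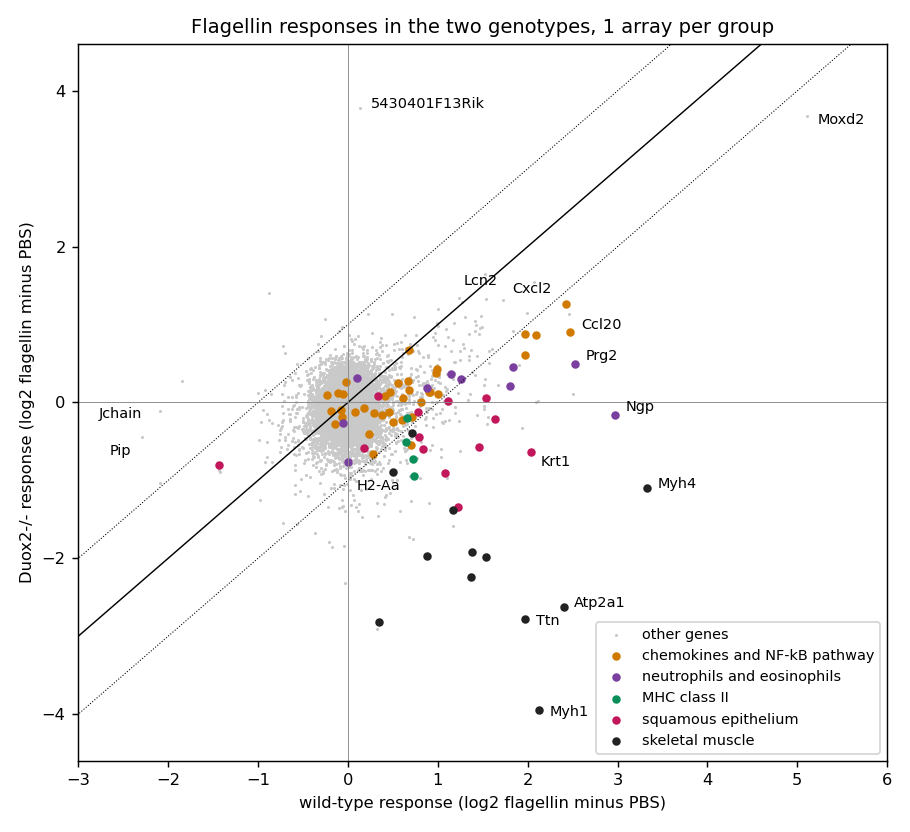
Each point is a bright gene, with its wild-type response on the x axis and its response in the arrays labelled Duox2-/- on the y axis, both as log2 flagellin minus PBS from 1 array per group. The solid line marks equal responses and the dotted lines a 2-fold difference; genes of 5 groups are coloured, and muscle genes lie far below the line while Lcn2 lies near it.

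A positive difference was reached in several ways. In 140 of the 180 genes the responses had opposite signs, upward in wild type and downward in the arrays labelled Duox2-/-, and in 80 of these the downward response was the larger. In 26 both responses had the same sign and that of wild type was the larger. The remaining 14 had the same sign with the larger response in the arrays labelled Duox2-/-. A single array stood apart in 35 of the 180: the wild-type flagellin array was high for 10, the wild-type PBS array was low for 9, the PBS array labelled Duox2-/- was high for 8 and the flagellin array labelled Duox2-/- was low for 8. An array counts as apart here when it lies at least 1 log2 unit from the median of the other 3 and those lie within 0.5 of each other.

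Starting and end levels separate the positive genes further. For 78 of the 180 the PBS arrays of the genotypes lay within 0.5 log2 units of each other and the flagellin arrays did not, so the larger gap lay after flagellin. For 45 it was the reverse: the PBS levels were apart and the flagellin levels lay within 0.5, so the larger gap lay in the starting levels. The cut does not place the whole difference at 1 end. Panx3, counted here, had gaps (Duox2-/- minus wild type) of 0.72 under PBS and -0.47 under flagellin. Both levels were apart for 57. Receptors of olfactory and vomeronasal neurons made up 18 of the 180 and genes of the muscle, tooth, squamous epithelium and gland lists 27. Of the other 135 genes, 71 were apart by this cut after flagellin only, 28 under PBS only and 36 at both ends. The lists are short, and muscle and squamous genes outside them, such as Mybpc1 and Hrnr, remain among the 135.

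**Figure D2:**
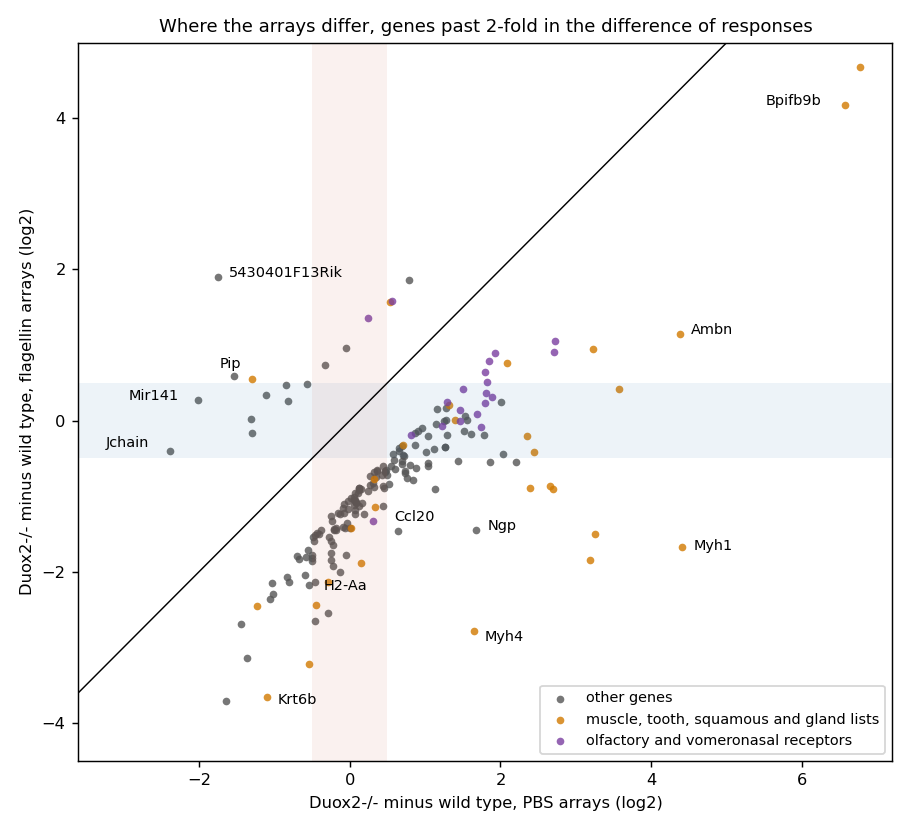
The 197 genes with a difference of responses of at least 2-fold are placed by the gap between the genotypes (Duox2-/- minus wild type, log2) in the PBS arrays on the x axis and in the flagellin arrays on the y axis. The shaded bands mark gaps within 0.5; 78 of the genes with a positive difference sit in the vertical band, with like PBS levels and lower flagellin levels in the array labelled Duox2-/-, and a gene on the solid line would have equal responses.

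The 115 genes that were at least 2-fold higher after flagellin in wild type show how much of that response was seen in the arrays labelled Duox2-/-. There, 14 of the 115 were also at least 2-fold higher, 32 were higher by 0.5 to 1, 52 lay within 0.5 of no response, 7 were lower by 0.5 to 1 and 10 were at least 2-fold lower. The median response of the 115 genes was 1.35 in wild type against 0.33 in the arrays labelled Duox2-/-. Genes chosen by a large value in wild type can favour wild type for that reason alone, so these counts are a description. In the reverse choice, of the 22 genes at least 2-fold higher in the arrays labelled Duox2-/-, 14 were so in wild type as well, with a median response of 1.28 in wild type and 1.17 in the arrays they were chosen by. Leaving out receptors and the muscle, tooth, squamous and gland lists left 48 genes at least 2-fold higher after flagellin in wild type. Of the 48, 6 were at least 2-fold higher in the arrays labelled Duox2-/-, 10 higher by 0.5 to 1 and 27 within 0.5. Muscle and squamous genes outside these short lists, such as Mybpc1 and Hrnr, remain among the 48.

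The sensing machinery came first in the order of the pathway. Tlr5, the flagellin receptor, is not analysed here. Over all genes 52.9% had a difference above 0 and 1.38% were at least 2-fold above, and the list counts from here on stand beside these shares. Among bright genes the shares were 59.9% and 1.44%, which are the nearer measure for lists whose members are mostly bright. Over 28 genes of flagellin and Toll-like receptor sensing the median difference was 0.25, with 19 above 0 and 1 at least 2-fold above. That gene was Ly96, which encodes the lipopolysaccharide co-receptor MD-2. Its values were 6.98 and 7.38 in wild-type PBS and flagellin and 6.74 and 6.05 in PBS and flagellin labelled Duox2-/-, so its array of flagellin labelled Duox2-/- was the lowest and the difference was 1.09. Tlr4, the receptor that Ly96 serves, read 7.58, 7.70, 7.08 and 6.24 in the same order, a difference of 0.96. The adaptors Myd88 and Tirap had differences of 0.61 and 0.55. Cd14, a co-receptor that hands microbial ligands to these receptors, went the other way: it read 7.36, 7.99, 6.13 and 6.99, higher after flagellin by 0.63 and 0.86 from unlike starting levels, for a difference of -0.23.

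NF-kB subunits and inhibitors followed. Of 23 genes, 19 had a difference above 0 and 2 were at least 2-fold above, beside 52.9% and 1.38% of all genes. As 20 of the 23 were bright, the shares of bright genes, 59.9% and 1.44%, are the nearer measure. The median was 0.37, from a median response of 0.38 in wild type against 0.06 in the arrays labelled Duox2-/-. Tnip3, a feedback inhibitor, had values of 5.49, 7.58, 5.28 and 6.15: it was higher after flagellin in both genotypes, by 2.10 and 0.86, and the PBS levels were close. Tnfaip2, a TNF-induced gene, was similar at 7.92, 9.88, 7.51 and 8.39, with a difference of 1.09 that fell to 0.98 under another scaling. Rel, an NF-kB subunit, and Birc3, an inhibitor of apoptosis that NF-kB induces, were higher after flagellin in wild type (0.27 and 0.71) and lower in the arrays labelled Duox2-/- (-0.66 and -0.19). The same held for Nfkbia, the main cytoplasmic inhibitor, which read 8.20, 8.70, 8.13 and 7.87, so that the PBS arrays were alike and the flagellin arrays were apart. Tnfaip3, which edits ubiquitin on signalling proteins, differed by 0.81 and Zc3h12a, a ribonuclease that clears cytokine mRNA, by 0.78. Bcl3, a nuclear partner of NF-kB, had nearly the same response in both, 0.68 and 0.67, and its difference of 0.01 changed sign with the scaling. Of the other measured subunits, Nfkb2 and Relb differed by 0.39 and 0.08, and Rela by -0.23.

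Among the chemokines the difference was large for a few genes. Ccl20, which attracts dendritic cells and lymphocytes to epithelia, read 5.97 and 8.44 in wild-type PBS and flagellin and 6.41 and 7.31 in those labelled Duox2-/-. Both flagellin arrays were above both PBS arrays, the responses were 2.48 and 0.90, and the difference of 1.58 came partly from the higher PBS level of the array labelled Duox2-/-. Cxcl2, a neutrophil attractant, showed the same order at 4.40, 6.83, 4.64 and 5.90, with a difference of 1.17. For Ppbp, which is stored in platelets and gives rise to a neutrophil attractant, the values were 6.67, 8.64, 6.17 and 6.78, and the wild-type flagellin array alone was high. Cxcl5, which epithelial cells make, read 8.41, 9.39, 7.86 and 8.28 and differed by 0.56. Cxcl1 was dim, and its responses of 0.44 and 0.41 left a difference of 0.03 whose sign changed with the scaling. Over the 7 neutrophil chemokines the median difference was 0.12, with 2 at least 2-fold above 0, beside 1.38% of all genes. Over the 4 bright ones the median was 0.86. Brightness goes by the highest array, and Cxcl2 passed only through the wild-type flagellin array, so this choice can itself favour larger differences.

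Of the 25 other chemokines 20 had a difference above 0 and 3 were at least 2-fold above, beside 52.9% and 1.38% of all genes, and the median was 0.31. Ccl5, an attractant of T cells and monocytes, read 6.58, 7.28, 6.65 and 6.10, with like PBS levels and opposite responses, and differed by 1.25. Cxcl16, a membrane-bound chemokine for T cells, read 6.94, 7.94, 6.54 and 6.65: the wild-type flagellin array alone was high, for a difference of 0.89. Ccl6 and Ccl3, made by macrophages, differed by 0.83 and 0.61. Other members of the list did not lean this way: Ccl2 differed by 0.10, Ccl4 by -0.29 and Ccl9 by -0.33. Of 10 chemokine receptors Ccr2, the receptor of inflammatory monocytes, stood out at 6.11, 7.35, 5.98 and 5.35, with like PBS arrays, a difference of 1.87 and the wild-type flagellin array highest. Cxcr2, the receptor of neutrophils for Cxcl2 and Ppbp, differed by 0.96, while Cxcr4, with values of 9.39, 9.65, 9.51 and 9.72, differed by 0.04, a value whose sign turned with the scaling.

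Cytokines were mostly dim and differed little. Over 20 cytokines outside the interleukin-1 family the median difference was -0.08, with 8 above 0 and none at least 2-fold in either direction, and only 2 of them were bright. Tnf had responses of 0.72 and 0.35, and Il6 read between 2.57 and 2.77 in all 4 arrays, close to the low end of the scale. Tgfb1, which restrains inflammation, was bright and differed by 0.85, upward by 0.49 in wild type and by -0.37 in the arrays labelled Duox2-/-. Of 11 interleukin-1 family genes 8 had a difference above 0, beside 52.9% of all genes. The epithelial cytokine Il1f9, also called Il36g, had values of 5.51, 7.04, 4.93 and 5.23, so that only the wild-type flagellin array reached the bright range, and differed by 1.23. Il1b, the inflammatory cytokine of myeloid cells, behaved otherwise: it read 5.79, 7.09, 5.40 and 6.50, was higher after flagellin by 1.30 and 1.09, and differed by 0.20.

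**Figure D3:**
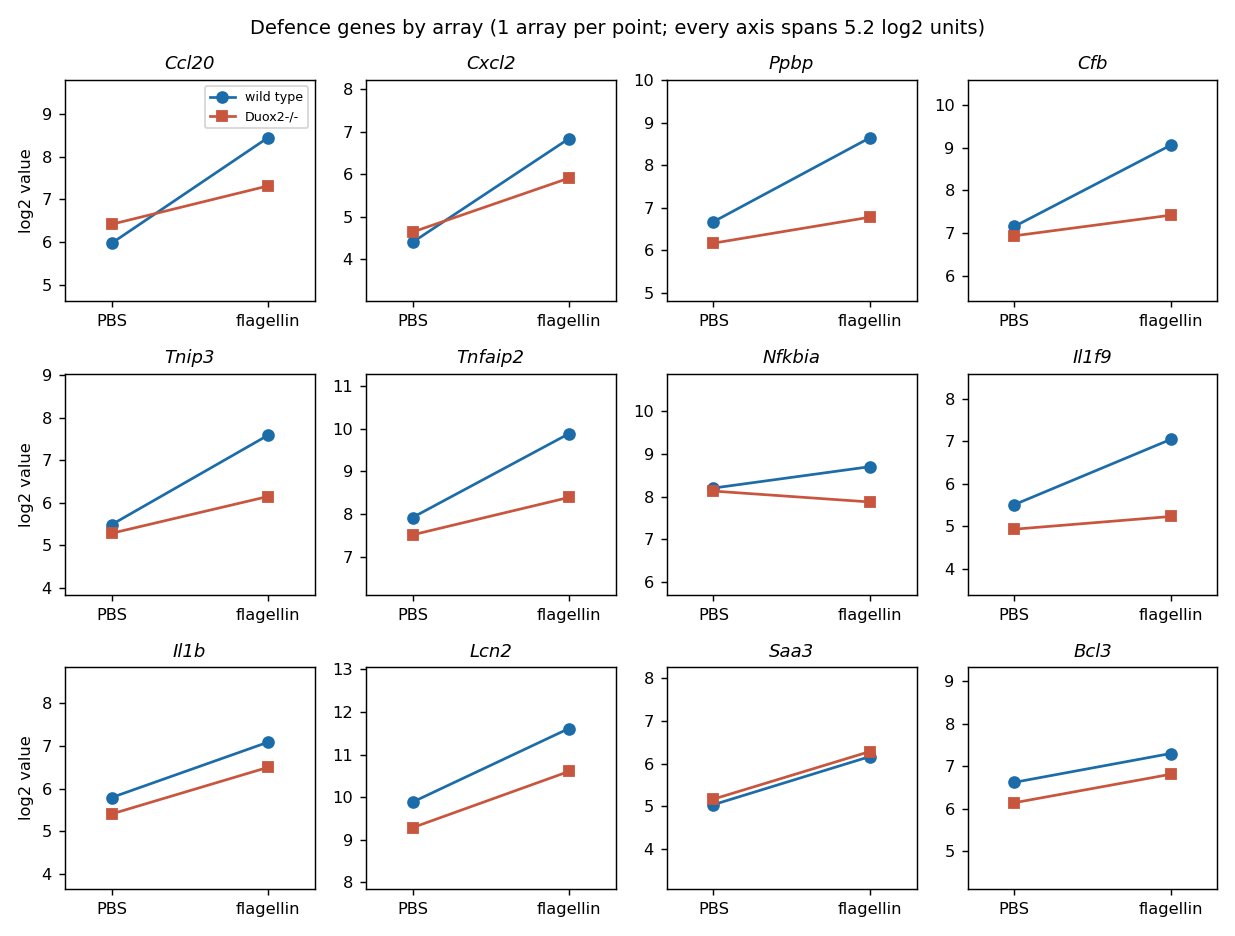
Log2 values of 12 defence genes in the 4 arrays, with treatment on the x axis, wild type as circles and Duox2-/- by label as squares; every panel spans 5.2 log2 units and each point is 1 array. Lines part from PBS to flagellin for Ccl20, Ppbp, Cfb, Tnip3 and Il1f9, and run nearly parallel for Il1b, Lcn2, Saa3 and Bcl3.

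Antimicrobial, acute phase and complement genes split into those with unequal and those with equal responses. Chil3, a chitinase-like protein of macrophages and neutrophils, had the largest difference of the chemokine, NF-kB, acute phase, antimicrobial and complement lists among genes at least 2-fold higher in wild type. It read 5.63, 7.74, 6.26 and 6.28: the wild-type flagellin array was high and the arrays labelled Duox2-/- were equal, for a difference of 2.10. Chil4, its close relative, read 8.37, 9.64, 6.76 and 8.05, was higher after flagellin by 1.27 and 1.29, and differed by -0.02, although the arrays labelled Duox2-/- were below their wild-type counterparts by log2 gaps of -1.61 under PBS and -1.59 under flagellin. Whether the probe sets of these relatives also bind each other's RNA was not tested. Complement factor B, Cfb, a protease of the alternative pathway, read 7.15, 9.06, 6.93 and 7.42, with like PBS levels, responses of 1.91 and 0.48 and a difference of 1.42. The calcium-binding S100a8, a neutrophil protein that sequesters metals, read 5.57, 7.40, 6.36 and 6.82 and differed by 1.38, of which 0.80 lay in the higher PBS level of the array labelled Duox2-/-. Lcn2, which withholds iron from bacteria, and the serum amyloid gene Saa3 were higher after flagellin in both genotypes. Lcn2 read 9.88, 11.61, 9.28 and 10.60, with responses of 1.73 and 1.32, and Saa3, a dim gene, read 5.04, 6.16, 5.17 and 6.28, with responses of 1.13 and 1.12 and a difference of 0.01 that changed sign with the scaling.

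The promoters of these genes are printed because they pair the largest differences with the smallest. The choice was among chemokine, NF-kB, acute phase, antimicrobial and complement list members at least 2-fold higher after flagellin in wild type. Of these, Chil3, Ccl20 and S100a8 are, with Cfb, the 4 genes with the largest differences. Saa3 and Chil4 are those nearest 0, with like responses in both genotypes. Each sequence is from RefSeq, build GRCm38.p6, and runs 5′ to 3′ in the direction of the gene from 250 bases before its start to 50 bases after it. Capitals mark matches to the searched motifs.
Chil3 (chr3:106167515-106167814, minus strand): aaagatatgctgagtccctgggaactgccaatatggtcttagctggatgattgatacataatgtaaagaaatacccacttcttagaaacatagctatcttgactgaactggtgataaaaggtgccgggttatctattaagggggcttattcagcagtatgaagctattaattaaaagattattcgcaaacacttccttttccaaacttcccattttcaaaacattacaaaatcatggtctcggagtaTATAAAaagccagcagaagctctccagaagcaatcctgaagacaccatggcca
Ccl20 (chr1:83116516-83116815, plus strand): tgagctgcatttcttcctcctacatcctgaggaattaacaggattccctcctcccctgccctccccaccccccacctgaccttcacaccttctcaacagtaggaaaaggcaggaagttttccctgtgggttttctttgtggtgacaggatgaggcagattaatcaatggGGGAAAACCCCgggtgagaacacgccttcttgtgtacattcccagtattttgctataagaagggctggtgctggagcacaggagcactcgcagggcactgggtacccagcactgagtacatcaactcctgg
S100a8 (chr3:90668821-90669120, plus strand): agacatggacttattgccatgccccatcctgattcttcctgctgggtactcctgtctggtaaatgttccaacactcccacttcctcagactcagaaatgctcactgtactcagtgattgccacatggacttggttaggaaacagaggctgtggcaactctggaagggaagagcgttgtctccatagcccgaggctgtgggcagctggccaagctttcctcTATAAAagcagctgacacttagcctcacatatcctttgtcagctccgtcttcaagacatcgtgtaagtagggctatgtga
Saa3 (chr7:46715627-46715926, minus strand): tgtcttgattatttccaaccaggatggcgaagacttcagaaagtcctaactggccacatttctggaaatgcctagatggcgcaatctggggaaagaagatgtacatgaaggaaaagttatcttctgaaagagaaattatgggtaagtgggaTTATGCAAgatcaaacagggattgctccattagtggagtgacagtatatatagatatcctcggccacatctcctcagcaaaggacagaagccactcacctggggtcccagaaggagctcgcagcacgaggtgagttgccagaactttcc
Chil4 (chr3:106219430-106219729, minus strand): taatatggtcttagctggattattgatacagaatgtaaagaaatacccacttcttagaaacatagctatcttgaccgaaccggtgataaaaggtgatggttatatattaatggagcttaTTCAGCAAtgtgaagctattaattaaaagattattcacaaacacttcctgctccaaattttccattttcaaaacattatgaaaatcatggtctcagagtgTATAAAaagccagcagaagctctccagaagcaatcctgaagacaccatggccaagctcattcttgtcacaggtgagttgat

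The motifs were searched on both strands in these windows and in all 32544 RefSeq promoters of 300 bases. The kB-type motif, a form that NF-kB can bind, which reads GGG, any 2 bases, TT, any base and CC, was in 4.78% of all promoters, and of the 5 it was in that of Ccl20, in overlapping copies that begin at -81 and -80 from the start. The C/EBP-type motif TTGCNNAA, in 10.8% of promoters, was found at -99 in Saa3 and at -131 in Chil4. The TATA motif TATAAA, in 13.6%, was at -30 in S100a8, at -31 in Chil4 and at -3 in Chil3. The AP-1-type motif TGANTCA, in 7.79% of all, was in none of the 5. The windows of Chil3 and Chil4 share 251 of 271 aligned bases (92.62%), with 58 gap bases, which reflects in part that the windows are placed at different RefSeq starts. A match is a description of these letters and does not show binding.

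The rest of these lists had smaller differences. The 14 acute phase and iron-withholding genes had a median difference of 0.20, with none at least 2-fold, and 3 were at least 2-fold higher in the arrays labelled Duox2-/- against 2 in wild type. One of the 3 was Serpina3n, a protease inhibitor, with values of 10.89, 11.62, 9.26 and 10.35, a lower level in both arrays labelled Duox2-/- and a difference of -0.37. Lactoferrin, Ltf, read 12.56 and 12.56 in wild type against 12.45 and 11.69 in the arrays labelled Duox2-/-, so its difference of 0.76 came from the flagellin array labelled Duox2-/- alone. The same array was the low one for Pglyrp1, a bacterial peptidoglycan-binding protein, at 11.45, 11.65, 11.37 and 10.49; its difference of 1.07 was 0.98 under another scaling. Over the 19 antimicrobial genes the median was 0.08, with 11 above 0 and 4 at least 2-fold above, beside 52.9% and 1.38% of all genes. Of 18 complement genes 13 had a difference above 0 and 2 were at least 2-fold above, beside 52.9% and 1.38% of all genes, with a median of 0.34. Besides Cfb these were C3ar1, the receptor of the C3a fragment on myeloid cells, at 1.12. The inhibitor Serping1 differed by 0.75 and the protease C1s1 by 0.80, and for both the flagellin array labelled Duox2-/- was the lowest.

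Moxd2, a monooxygenase gene of the dopamine beta-hydroxylase family that was singled out after its values were seen, had the largest response of a bright gene in wild type. Its values were 3.99 and 9.10 in wild type against 5.01 and 8.68 in the arrays labelled Duox2-/-, so both flagellin arrays were far above both PBS arrays. The responses were 5.10 and 3.67, and of the difference of 1.43 a part of 1.02 lay in the PBS arrays.

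Neutrophil, eosinophil and monocyte markers had larger median responses in wild type, and for the granulocyte markers part of that lay in the PBS arrays. All 17 measured neutrophil markers had a difference above 0, beside 52.9% of all genes, with a median of 0.70, and 5 were at least 2-fold above. Ngp, a granule protein of immature neutrophils, read 5.47, 8.44, 7.15 and 6.99: the wild-type PBS array was lowest and the wild-type flagellin array highest, with the arrays labelled Duox2-/- between them. Its difference was 3.13. Retnlg, a resistin-like neutrophil gene, had the same order at 5.48, 7.28, 6.52 and 6.73, as had S100a8 above, and so had the dim genes Mmp8 and Ly6g, with differences of 1.60 and 1.23. Averaged over the 17 markers the level was 5.66 and 6.59 in wild-type PBS and flagellin and 6.12 and 6.21 in PBS and flagellin labelled Duox2-/-. The median gap between the genotypes was 0.39 in the PBS arrays, higher in the array labelled Duox2-/-, and -0.49 in the flagellin arrays. In bulk RNA, fewer cells of a type and less RNA per cell cannot be told apart.

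Among eosinophil and red cell genes the wild-type PBS array was likewise the low one. Prg2, the major basic protein of eosinophils, read 5.13, 7.66, 6.26 and 6.75 and differed by 2.03, and Ear6 and Epx, other eosinophil granule genes, were dim and differed by 1.47 and 0.85. Over the 6 eosinophil markers the median was 0.51, with 4 above 0. The red cell anion exchanger Slc4a1 read 5.93, 7.28, 6.97 and 7.08, so that the wild-type PBS array was low and the other 3 alike, and differed by 1.24. Alas2, the haem synthesis enzyme of red cell precursors, was likewise low in that array, at 6.56 against 7.24, 7.36 and 7.44. The median of the 5 red cell genes was 0.88, and their mean level was 5.07 in the wild-type PBS array and 5.92, 5.91 and 6.06 in the others. Red cell RNA thus stood lower in the wild-type PBS array alongside the neutrophil genes; its part in the neutrophil, eosinophil and chemokine differences was not tested.

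Monocyte and macrophage genes parted mainly after flagellin. Of 17 markers 13 had a difference above 0 and 3 were at least 2-fold above, beside 52.9% and 1.38% of all genes. The median was 0.49, from responses of 0.37 and -0.01, while the PBS arrays differed by a median of -0.06. The macrophage surface protein Adgre1 read 6.44, 7.10, 6.25 and 5.66, and the scavenger receptor Cd163 5.84, 6.48, 6.53 and 5.91. Each differed by 1.26, upward in wild type and downward in the arrays labelled Duox2-/-. Not all members leaned this way: Lyz2, the lysozyme of myeloid cells, was higher after flagellin by 0.35 and 0.78, and Marco, a scavenger receptor, by 0.09 and 0.67. Of the 9 T cell markers Cd3g, a chain of the T cell receptor complex, was the only bright one, at 5.31, 6.88, 5.06 and 5.13, with a difference of 1.50. Its partners Cd3e and Cd3d were dim and differed by 0.44 and 0.14. Dendritic cell and B cell lists had medians of 0.03 and 0.04, and both signs changed with the scaling.

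Adhesion molecules and a subunit of the phagocyte oxidase also had larger responses in wild type. Each of the 11 leukocyte adhesion genes had a difference above 0 by the deposited values, of which the smallest, that of Icam2, turned sign with the scaling, and the median was 0.37. Vcam1, to which activated endothelium binds leukocytes, read 7.09, 8.13, 7.40 and 7.31, with the wild-type flagellin array highest and a difference of 1.13. Itgam, the myeloid integrin chain, read 7.36, 8.06, 6.81 and 6.35 and differed by 1.16, while Pecam1, an endothelial junction protein, differed by 0.98. Icam1, the ligand of leukocyte integrins, was higher after flagellin in both genotypes and differed by 0.27. Of 17 NADPH oxidase and peroxidase genes the median difference was 0.13 and 1 was at least 2-fold above 0, beside 1.38% of all genes. That was Cybb, the catalytic subunit of the phagocyte oxidase, at 7.78, 8.90, 7.53 and 7.31, with like PBS arrays, the wild-type flagellin array high and a difference of 1.34. Mpo, the neutrophil peroxidase, differed by 0.80.

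The 4 bright genes of MHC class II presentation had opposite responses, upward in wild type and downward in the arrays labelled Duox2-/-. H2-Aa, a chain of an MHC class II molecule, read 8.81 and 9.54 in wild-type PBS and flagellin and 8.35 and 7.40 in those labelled Duox2-/-. The partner chain H2-Ab1 read 8.82, 9.54, 8.23 and 7.50, and Cd74, the invariant chain that guides class II molecules, read 8.05, 8.70, 7.37 and 6.87. In these the wild-type flagellin array was highest and the flagellin array labelled Duox2-/- lowest, and the differences were 1.68, 1.45 and 1.15. Of 8 class II presentation genes 7 had a difference above 0, with a median of 0.50 from responses of 0.44 and -0.12, and the 4 dim ones differed by -0.15 to 0.16. B2m, the light chain of class I molecules, which was added after its values were seen, had the same order at 10.87, 11.68, 10.83 and 10.32 and a difference of 1.32. Interferon-stimulated genes as a list did not share this: the 25 had a median of -0.05 with 12 above 0. The interferon-induced GTPase Iigp1 differed by 1.13, from 6.54, 7.52, 5.52 and 5.36, while the transcription factor Irf7 and the viral RNA sensor Oas1a differed by -0.59 and -0.68.

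**Figure D4:**
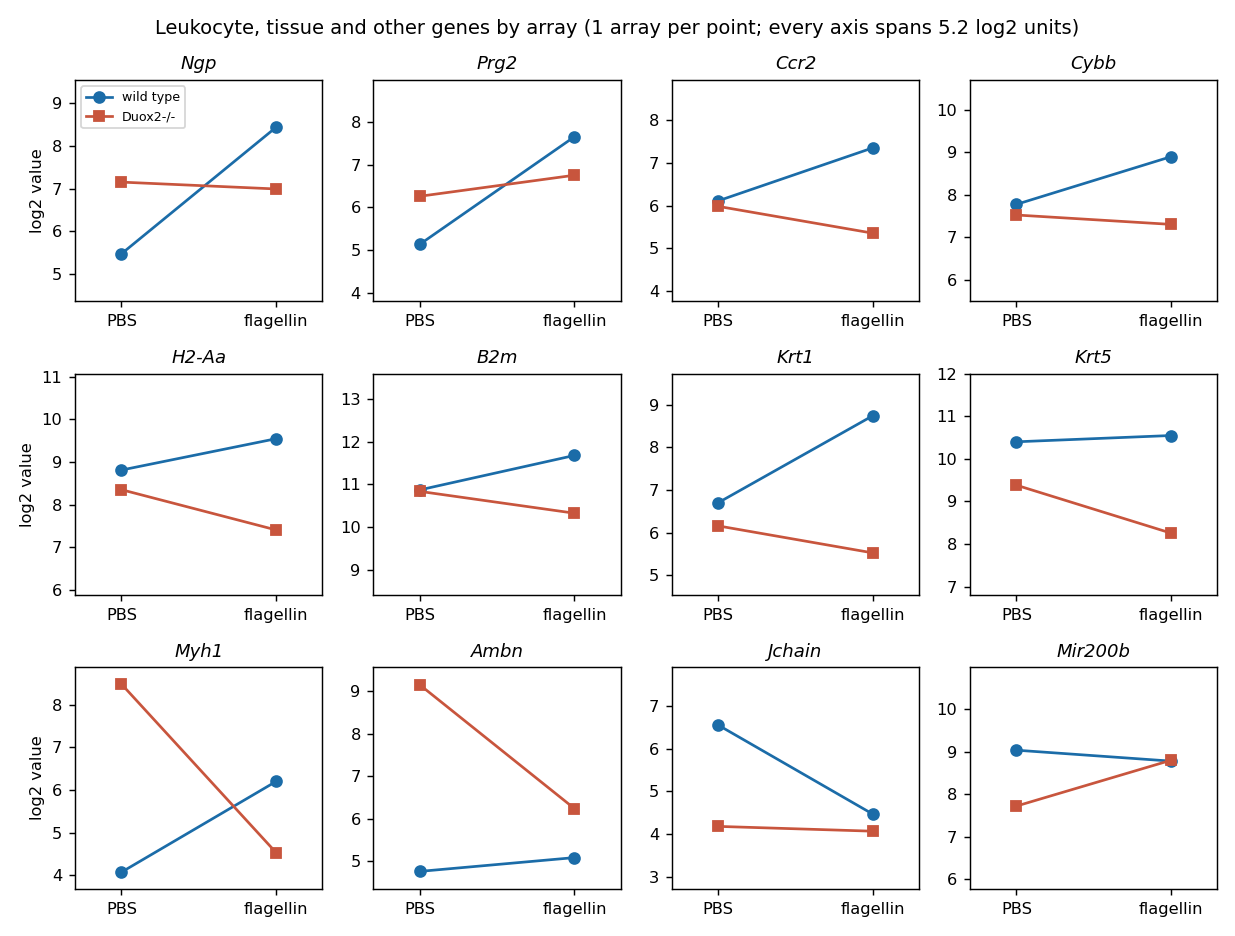
Log2 values of 12 leukocyte, tissue and other genes in the 4 arrays, drawn as for the defence genes: treatment on the x axis, circles for wild type, squares for Duox2-/- by label, 5.2 log2 units per panel. Ccr2, Cybb, H2-Aa and B2m start close together and part after flagellin; Ngp, Prg2 and Myh1 cross, and Ambn and Mir200b differ most in the PBS arrays.

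All 11 glucocorticoid-induced genes, each of them bright, had a difference above 0, beside 59.9% of bright genes. Their median was 0.52, from responses of 0.19 and -0.44 and a median PBS gap of 0.35. Pdk4, a kinase that restrains glucose oxidation, read 6.76, 7.13, 7.37 and 6.49 and differed by 1.25, and Fkbp5, a chaperone of the glucocorticoid receptor, read 7.76, 8.10, 8.75 and 8.30 and differed by 0.79. In both, the PBS array labelled Duox2-/- was the highest. The 15 NRF2 target genes had a median of 0.18 and none reached 2-fold. The cystine transporter Slc7a11 was higher after flagellin by 1.02 and 0.35, and Nqo1, a quinone reductase, differed by -0.42. The 15 peroxide-removing enzymes had a median of 0.15. Clock genes leaned down after flagellin in both genotypes, with median responses of -0.37 and -0.23 and a median difference of -0.13. Dbp, an output gene of the clock, read 8.69, 7.79, 8.36 and 8.22, and Nr1d1, a clock repressor, 9.13, 8.25, 9.57 and 9.34: their responses were -0.90 and -0.88 in wild type against -0.14 and -0.23 in the arrays labelled Duox2-/-.

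Of 22 cell cycle genes, 16 of them bright, 20 had a difference above 0, beside 52.9% of all genes and 59.9% of bright genes. The median was 0.53, with responses of 0.41 and -0.08. The mitotic motor Kif11 read 6.48, 7.02, 6.92 and 6.42 and differed by 1.04. Mki67, the proliferation marker, differed by 0.84, with the wild-type PBS array lowest at 6.97. For the topoisomerase Top2a the difference of 1.06 depended on the probe set, since the mean of its probe sets gave 0.39. Among epithelial surface genes Muc5ac, a gel-forming mucin, read 9.38, 9.55, 8.97 and 8.22 and differed by 0.92, and the chloride channel Cftr read 8.06, 7.93, 7.76 and 6.90 and differed by 0.73. In both the flagellin array labelled Duox2-/- was the low one. As a list, the 15 mucin genes had a median of -0.12 and the 13 channel genes 0.19.

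The largest differences belonged to genes of skeletal muscle and teeth, tissues other than the labelled mucosa. All 18 skeletal muscle genes had a difference above 0, 14 at least 2-fold, beside 52.9% and 1.38% of all genes. Their median was 2.70, from responses of 0.91 and -1.24. The fast myosin heavy chain Myh1 read 4.07 and 6.20 in wild-type PBS and flagellin and 8.49 and 4.53 in those labelled Duox2-/-. The calcium pump Atp2a1 read 5.84, 8.24, 9.02 and 6.39, and the giant sarcomere protein Ttn 5.00, 6.98, 8.26 and 5.48. In each the PBS array labelled Duox2-/- was highest and the wild-type PBS array lowest, and the differences were 6.08, 5.03 and 4.76. Myh4, another fast myosin, was highest in the wild-type flagellin array, at 7.83 against 4.50, 6.15 and 5.05. Genes of tooth enamel and dentine had a median of 1.03 over 9 genes: the enamel matrix gene Ambn read 4.77, 5.09, 9.15 and 6.24, with the PBS array labelled Duox2-/- alone far above. Dmp1, a dentine and bone matrix gene, differed by 1.03, or 0.92 under another scaling. The mean level of the muscle genes was 5.19 and 6.33 in wild-type PBS and flagellin and 7.25 and 5.79 in those labelled Duox2-/-, and that of the tooth genes was 5.14, 5.09, 6.88 and 5.72. Muscle and tooth RNA was thus unequal between the arrays, and its part in the other differences was not tested. Leaving these lists, the squamous and the gland lists out, 153 genes were at least 2-fold above 0 and 15 below. The lists are short, so muscle genes outside them, such as Mybpc1 (2.75) and Actn2 (2.40), stay among the 153. So do squamous genes such as Hrnr (1.60), and the 153 are not free of such RNA.

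Squamous and basal epithelial genes differed as well. Of the 20 squamous epithelium genes 15 had a difference above 0 and 9 were at least 2-fold above, beside 52.9% and 1.38% of all genes, with a median of 0.89. Krt1, a keratin of cornifying epithelium, read 6.70, 8.74, 6.16 and 5.52, and Krt6b, a keratin of stressed and squamous epithelium, 7.51, 8.73, 6.41 and 5.07. For both, the flagellin arrays were farther apart than the PBS arrays, with wild type higher, and the differences were 2.67 and 2.56. Klk14, a skin protease, was lower after flagellin in both genotypes and differed by -0.64. In basal cells, the progenitors of the airway epithelium, Krt5 read 10.40, 10.55, 9.38 and 8.26 and differed by 1.27, and Krt15 read 8.93, 9.10, 8.24 and 7.31, a difference of over 2-fold that was 0.99 under another scaling. The other 6 basal genes differed by -0.22 to 0.66.

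Stromal and vessel genes were lower after flagellin mainly in the arrays labelled Duox2-/-. The 12 endothelial genes, all bright, had median responses of -0.06 and -0.55 and a median difference of 0.45, with 10 above 0, beside 59.9% of bright genes. The endothelial sialomucin Emcn read 7.24, 7.26, 7.41 and 6.45. For 11 fibroblast genes the median responses were 0.24 and -0.44 and the median difference 0.64. Their matrix gene Lum read 9.25, 9.70, 10.12 and 9.38, so that its PBS array labelled Duox2-/- was the highest and its difference 1.19. Myh11, the smooth muscle myosin, read 8.50, 8.91, 9.34 and 8.12 and differed by 1.63. Cartilage and bone genes had a median of 0.49 over 11 genes. The gland list had a median difference of -0.23, but its member Bpifb9b, of a secreted lipid-binding family, read 6.26 and 8.76 in wild type against 12.83 and 12.94 in the arrays labelled Duox2-/-, and its difference of 2.39 is the wild-type response of 2.50 from a low level.

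**Figure D5:**
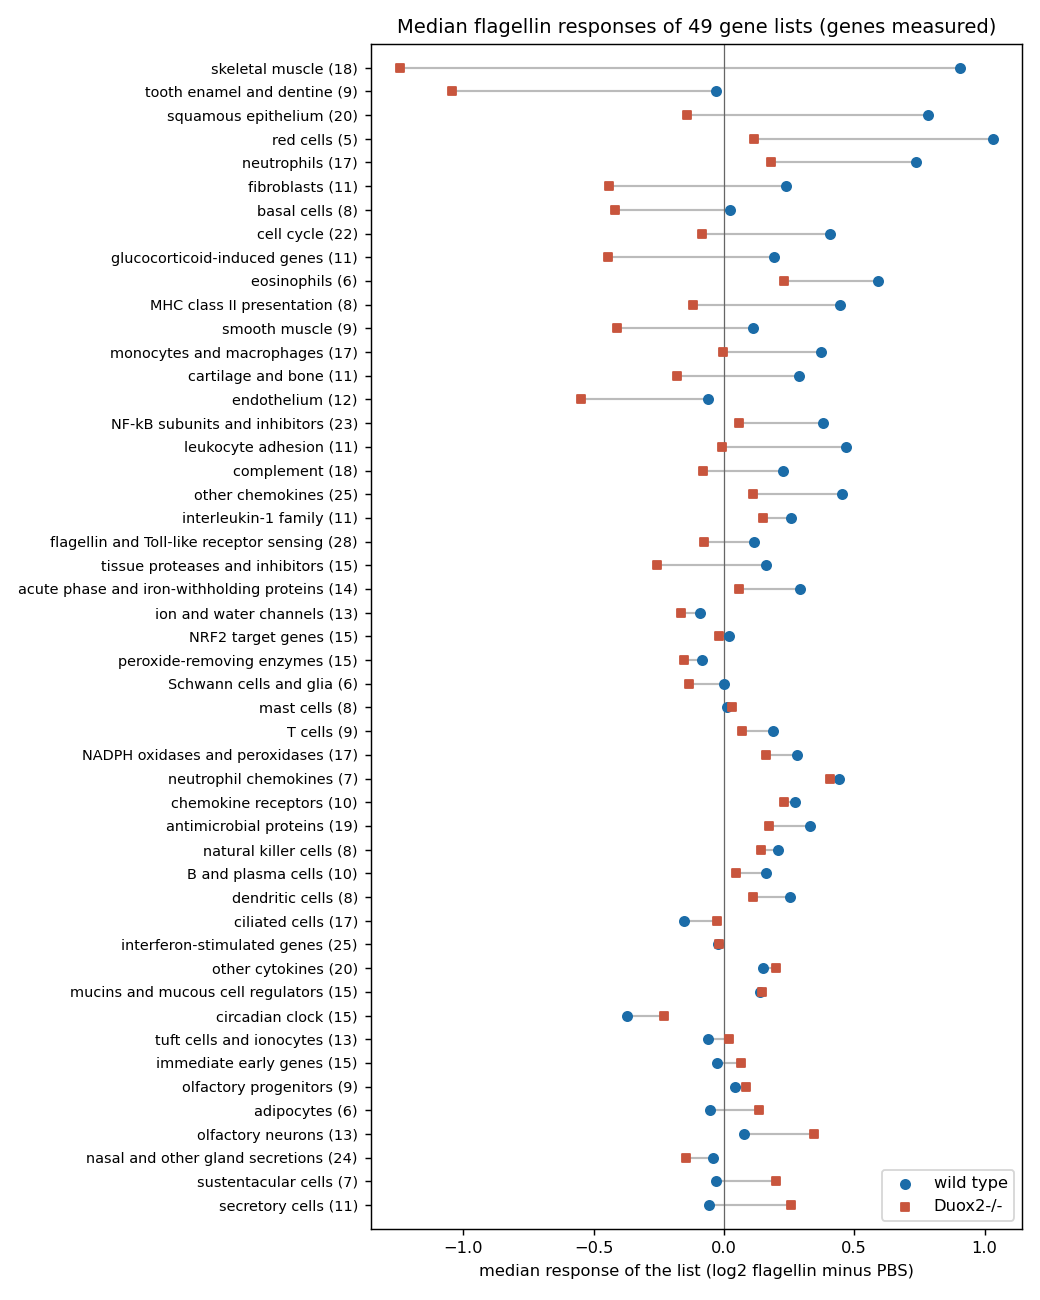
Median response (log2 flagellin minus PBS) of the measured members of 49 gene lists, with the number of members in brackets, circles for wild type and squares for Duox2-/- by label, ordered by the median difference of responses. Skeletal muscle, tooth and squamous lists have the widest gaps, signal lists such as NF-kB genes (0.38 and 0.06) narrower ones, and secretory and olfactory lists at the bottom have the reverse order.

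On the negative side, where the arrays labelled Duox2-/- had the more upward response, the counted genes were few. In 13 of the 17 the responses had opposite signs, and in 8 of the 17 the PBS levels were apart while the flagellin levels lay within 0.5. Jchain, the joining chain of secreted IgA, read 6.56, 4.47, 4.18 and 4.06, so the wild-type PBS array alone was high, and differed by -1.98. The heavy chain gene Igha, outside the naming rule, had the same high array at 6.99, 5.14, 5.46 and 5.73 and differed by -2.12. Pip, a protein of lacrimal, salivary and nasal gland fluid, read 10.23, 7.94, 8.94 and 8.49 and differed by -1.84, while the gland gene Dcpp1 was highest in the flagellin array labelled Duox2-/-, at 7.67 against 6.17, 6.10 and 6.70. The linker histone H1f3 read 6.62, 5.89, 5.50 and 6.23 and differed by -1.45. The lowest difference of a bright gene was that of the predicted gene 5430401F13Rik, also outside the rule, at -3.65: it read 10.06, 10.19, 8.31 and 12.09, lowest and highest in the arrays labelled Duox2-/-. The gene Necab2, for a calcium-binding protein, lay just inside the counted size at -1.01, and at -0.97 under another scaling.

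A family of microRNAs stood on this side too, and was chosen after its values were seen. MicroRNA genes leaned negative as a class, with a median difference of -0.19 over 296 measured genes, of which 78 were bright. Of the 296, 217 lay below 0, 11 were at least 2-fold below and 0 at least 2-fold above. Over all genes 52.9% lay above 0, 0.211% were at least 2-fold below and 1.38% at least 2-fold above. Whether a probe set reads precursor, host or mature RNA was not tested, so these values are not mature microRNA levels. The miR-200 family, which maintains the epithelial state by repressing the Zeb transcription factors, had 4 measured members. Their mature 3p forms are printed because they fall into 2 groups by seed, the bases that pair with targets. Sequences are from RefSeq, build GRCm38.p6, all on the minus strand, with the seed (bases 2 to 8) in capitals.
miR-200a-3p (chr4:156054911-156054932): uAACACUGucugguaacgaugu
miR-141-3p (chr6:124717917-124717938): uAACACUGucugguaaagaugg
miR-200b-3p (chr4:156055685-156055706): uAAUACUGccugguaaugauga
miR-200c-3p (chr6:124718324-124718346): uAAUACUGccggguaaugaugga

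miR-200a and miR-141 share the seed AACACUG, and miR-200b and miR-200c the seed AAUACUG. The 4 measured genes lie in a pair on chromosome 4 and a pair on chromosome 6, and each pair holds 1 member of either seed. RefSeq lists 5 genes of the family, and Mir429 was not among those measured, so the pairs need not be whole clusters. Mir200b read 9.03, 8.78, 7.72 and 8.80, and Mir200a beside it 9.25, 8.96, 7.95 and 8.80. The PBS array labelled Duox2-/- was the low one and the other 3 were close. On chromosome 6, Mir141 read 6.81, 5.94, 4.80 and 6.20 and Mir200c 7.40, 6.70, 6.55 and 7.18, with the same array lowest and the wild-type flagellin array lower too. The differences were -1.33 for Mir200b, -1.14 for Mir200a, -2.28 for Mir141 and -1.33 for Mir200c. Counted from the lowest gap between the PBS arrays, Duox2-/- minus wild type, they ranked 1 (Mir141), 4 (Mir200b), 5 (Mir200a) and 13 (Mir200c) of the 296 microRNA genes. Members of a pair can come from 1 primary transcript and are not independent.

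The secretory, olfactory neuron and sustentacular lists of the mucosa had negative medians, unlike the basal cells above, and of 17 ciliated cell genes 8 had a difference above 0. Of 11 secretory cell genes 3 had a difference above 0, with a median of -0.32. Their member Bpifb1, an airway secretory protein, was higher after flagellin by 0.26 and 0.89, and the trefoil gene Tff2 read 8.39, 7.96, 7.51 and 7.94. Of 13 olfactory neuron genes 2 were above 0, with a median of -0.19 from upward responses of 0.08 and 0.35. Omp, the marker of mature olfactory neurons, was among the brightest genes at 11.94, 11.99, 11.85 and 12.16, so the labelled tissue held olfactory mucosa in all arrays. Sustentacular cells, which support these neurons, had a median of -0.23 over 7 genes with 1 above 0. The 419 bright olfactory and vomeronasal receptor genes had a median difference of 0.02: 50 were at least 2-fold higher after flagellin in wild type against 10 in the arrays labelled Duox2-/-, and 18 differed by at least 2-fold above 0 and 2 below, beside 0.922%, 0.176%, 1.44% and 0.136% of all bright genes.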

How the data were processed

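RNA of 4 mouse groups was measured on 1 Affymetrix gene array each. The authors made the deposited log2 values with RMA in Affymetrix Expression Console 1.1, per the submitters' processing notes; the sources used here do not state the genome build of the probe sets. RMA equalises the probe distributions of the arrays, so a shift of all genes cannot be seen. The deposited probe set values still differed in spread between the arrays. No further normalization was applied. Of 35556 probe sets, 1621 name several genes and 12146 name no listed gene; these were left out. For 999 genes with several probe sets the brightest by mean was used. Genes were counted as bright if their highest value reached 6.52, which stands for signal over background.

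The difference of responses was computed per gene and described by size, since the interaction has no residual degree of freedom; with 1 array per group, the number of arrays limits the precision. Members, 49 gene lists (664 of 730 memberships matched; the others are not analysed here) and the naming rule were chosen with earlier results of these data known. The rule names the 12 highest and 12 lowest bright genes, leaving out predicted, receptor, immunoglobulin and small RNA genes, up to 4 members of each signal list, the Duox genes and 10 genes of the pathway whatever their values, 121 genes in all. Members of cell type and tissue lists, and other genes outside the rule, were named after their values were seen. Alternatives were the brightness floor, 3 scalings (median centring, and cyclic loess and quantile normalization with limma 3.58.1 in R 4.3.3), the mean of probe sets per gene, gene classes left out and a 3-fold size. The steps, in Python 3.11.15 with numpy 2.4.6, pandas 2.3.3 and matplotlib 3.10.9, were tested on simulated data.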

Additional observations from a re-analysis of the deposited data

Results flagged for a closer look

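In 10 bright genes the responses had opposite signs and each was at least 2-fold, upward in wild type and downward in the arrays labelled Duox2-/-. Of these, 9 encode proteins of the skeletal muscle contractile apparatus or its calcium pump, and Krt6b is a keratin. The differences of responses were 6.08 for Myh1, 5.03 for Atp2a1, 4.76 for Ttn, 4.43 for Myh4, 3.61 for the troponin gene Tnnt3, 3.52 for the myosin light chain Myl1, 3.29 for the thin filament gene Neb, 2.75 for the myosin-binding Mybpc1, 2.56 for Krt6b and 2.55 for the troponin gene Tnnc2. With 1 array per group the difference between the genotypes was not tested. In 8 of the 9 muscle genes, all but Myh4, the PBS array labelled Duox2-/- was the highest of the 4 arrays, and in all 9 the wild-type PBS array was the lowest. For Krt6b the wild-type flagellin array was highest and the flagellin array labelled Duox2-/- lowest.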

How the results depend on the processing

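The direction of the difference was kept by the named genes past 2-fold in every alternative run on them: 0 of 43 changed sign and 4 fell under 2-fold in some alternative (Tnfaip2, Pglyrp1, Top2a and Necab2). Of 484 values of named genes under the scalings and the mean of probe sets, 483 moved by less than 0.27, the robust SD of the difference over bright genes, and 1, that of Top2a, moved by more. Of 49 lists the median of 2, dendritic cells and B and plasma cells, changed sign with a scaling. The counts above and below 0 stayed within 1.5 times of 180 and 17 under the scalings, the mean of probe sets and the gene classes left out, and between 86.8% and 92.3% of counted genes lay above 0 in every alternative. The floor and the size changed the counts by their construction. Without a floor 276 genes were above and 42 below, with 215 and 36 of opposite signs. Of those above, 22 had the same sign with the larger response in the arrays labelled Duox2-/-. Over both directions 66 had 1 array apart. At the reported settings that count was 39 over both directions, of which 35 were above 0, and the counts of 1 array apart below also take both directions. With the floor at the 75th percentile 72 were above and 6 below, 56 and 3 of opposite signs, 11 of the same sign with the larger response in wild type, 5 with the larger in the arrays labelled Duox2-/- and 14 with 1 array apart. At 3-fold the counts were 50 and 5, then 42, 2, 5, 3 and 10 in the same order. With only bright members the list median was 0.86 for neutrophil chemokines, 0.58 for chemokine receptors, 0.61 for other cytokines, 0.65 for leukocyte adhesion, 1.30 for MHC class II presentation, 0.91 for eosinophils, 1.50 for T cells (1 gene), -0.42 for natural killer cells (1 gene), -0.35 for B and plasma cells, 3.41 for skeletal muscle, 1.80 for tooth and 1.43 for squamous epithelium, since dim members with small differences then drop out. The filter can also shape these medians, since brightness goes by the highest array. Cd3g, the T cell gene, passed only through the wild-type flagellin array. Jchain, of the B and plasma cells, passed only through the wild-type PBS array. Adipocytes had no bright member and give no such value. No array can be left out, since each group has 1. No paired analysis was possible because each group has 1 array. Signal over background limits the dim genes, among them Duox2, Saa3, Cxcl1, Tnf and Il6, whose differences may be compressed.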

Other observations

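Probe sets that name several genes or no listed gene were not used in the comparison. Of these, 5957 were bright, and 211 (3.54%) had a difference of responses at least 2-fold above 0 and 102 at least 2-fold below. The share above 0 was larger than the 1.44% of bright genes. Below 0, the 102 of 5957 stand beside 17 of 12471 bright genes (0.136%). These probe sets thus leaned less to the positive side than the bright genes did. The tables used here do not say what these probe sets measure.

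The spread of the responses over bright genes, as a robust SD, was 0.231 for the arrays labelled Duox2-/- and 0.145 for wild type, so the difference of responses takes more of its spread from the former. The median response was -0.07 in the arrays labelled Duox2-/- and 0.00 in wild type over the same genes, and 37.8% and 49.5% of bright genes were higher after flagellin. Over all genes these shares were 48.7% and 52.1%. The part of the unlike interquartile ranges of the arrays in this was not tested.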
